A study of Arabidopsis thaliana with 18 samples.

Results

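A transcript can be present in a cell without being carried by many ribosomes. Messenger RNAs that are being translated bear several ribosomes at once and sediment as polysomes in a sucrose gradient, so the signal of a transcript in polysome RNA, set against its signal in the unfractionated steady-state RNA, describes how much of it travels with ribosomes relative to other transcripts. In dark-grown seedlings, first light starts greening and the opening of the cotyledons, and translation changes along with transcription. The transcripts described here are those whose polysome signal was low against their steady-state signal in darkness and at both times in light.

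They were chosen by rule from the signals themselves. A probe set is a group of short probes on the array that reports 1 signal for a transcript. For each probe set the polysome ratio was taken as the mean log2 signal in polysome RNA minus the mean log2 signal in steady-state RNA. A probe set was kept if this ratio was -0.8 or lower in darkness, at 0.5 h and at 4 h, and if its steady-state group means all reached the log2 of a signal of 150. It had to list exactly 1 gene, and plastid-encoded genes, ribosomal protein genes, CHLI2, CHLM and AT1G74470 were set aside. Of 22746 non-control probe sets, 93 met the rule, for 91 genes. They made up 1.65% of the 5623 probe sets that met the annotation part and the steady-state minimum, which are called the comparison set below. Before the annotation part was applied, 205 probe sets passed both thresholds. Of these, 89 list no gene, 9 list several, and 14 of the 107 single-gene ones are plastid-encoded. No ribosomal protein gene that the names identify was among them, and neither was any of the 3 named exclusions: CHLI2 lay at -0.60, -0.79 and -1.08, CHLM at -1.05, -0.90 and -0.10, and AT1G74470 at -0.92, -0.58 and -0.51 in darkness, 0.5 h and 4 h.

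The samples were aerial parts of wild-type Col-0 Arabidopsis thaliana seedlings, grown etiolated for 4 days. They were either left in darkness or given white light of 70 to 80 µmol per square metre per second for 0.5 h or 4 h. Each condition gave steady-state RNA and polysome RNA, with 3 arrays of each, 18 in all. By their labels the replicates are biological, but the labels do not say how many seedlings made up a replicate. Array medians ran from 152.7 to 205.6 signal units, and arrays of 1 group correlated at 0.902 to 0.961 over log2 signals. The markers of green aerial tissue RCA, LHCB4.1 and LHCB4.2 had mean dark steady-state signals of 7009, 11170 and 11250, while the root hair markers EXPA7 and EXPA18 had group means of 7.07 to 53.3. In these whole aerial parts, fewer cells of a type and less RNA per cell cannot be told apart.

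Because the rule used the polysome ratio, the ratios that follow are a description and carry no test. The median ratio of the 93 members was -1.14 in darkness, -1.22 at 0.5 h and -1.42 at 4 h, against 0.02, 0.01 and -0.04 in the comparison set. In 45 members the ratio was -1 or lower in every condition, a polysome signal at least 2-fold below the steady-state signal, and in 3 it was -2 or lower throughout. The 3 polysome arrays lay below the 3 steady-state arrays in each condition for 77 of the 93 members (82.8%). In the comparison set, members included, the same held for 300 of 5623 probe sets (5.3%). The rule itself favours such a separation in the members. Their mean dark steady-state signals, held by the rule above a minimum, ran from 158 to 14440 with a median of 590, beside a median of 544 in the comparison set, which has the same minimum. At the edge of the rule, AT5G42570 (-0.82, -0.80 and -1.37), AT3G09470 (-0.81, -1.20 and -1.23) and GH9C2 (-0.93, -0.81 and -1.24) lay just inside. SDRB (-0.88, -0.86 and -0.80), AT1G75900 (-0.80, -0.93 and -0.98) and AT3G44430 (-1.06, -1.89 and -0.80) lay just outside, each with 1 value that falls short of the threshold before rounding.

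The lowest mean ratio on the log2 scale, -3.12, belonged to SIZ1 (AT5G60410, probe set 247629_at), the E3 ligase that attaches the small modifier SUMO to other proteins and that is known for roles in phosphate, temperature and light responses. In darkness its steady-state signals were 386.4, 281.9 and 417.5 and its polysome signals 9.0, 76.0 and 108.1. At 0.5 h they were 270.9, 438.0 and 358.1 in steady-state RNA and 33.3, 103.0 and 133.4 in polysome RNA. At 4 h they were 415.6, 471.6 and 293.3 against 28.7, 3.8 and 103.7. Every polysome array lay below every steady-state array, but the polysome arrays themselves spread widely, down to single-digit signals. The ratios were -3.09 ± 2.02, -2.18 ± 0.80 and -4.10 ± 2.74 (SD of the differences of same-numbered arrays, n = 3), and with 32 added to each signal they were -2.19, -1.75 and -2.65. The mean over the 3 conditions then was -2.20, and AT5G24690 (probe set 246959_at) lay lowest instead, at -2.23.

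The array carries another probe set for SIZ1, and it gave another picture. Probe set 247630_at read 989.4, 1108.4 and 948.4 in dark steady-state RNA and 869.5, 958.4 and 989.7 in dark polysome RNA. At 4 h it read 921.5, 981.3 and 915.1 in steady-state RNA and 684.0, 561.9 and 662.3 in polysome RNA. Its ratios were -0.11, -0.39 and -0.57. Its signal in the dark steady-state RNA was higher than that of 247629_at on every array, and in darkness its polysome and steady-state arrays overlapped. The reference gene table gives AT5G60420 as an older locus name now included in SIZ1.

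**Figure D1:**
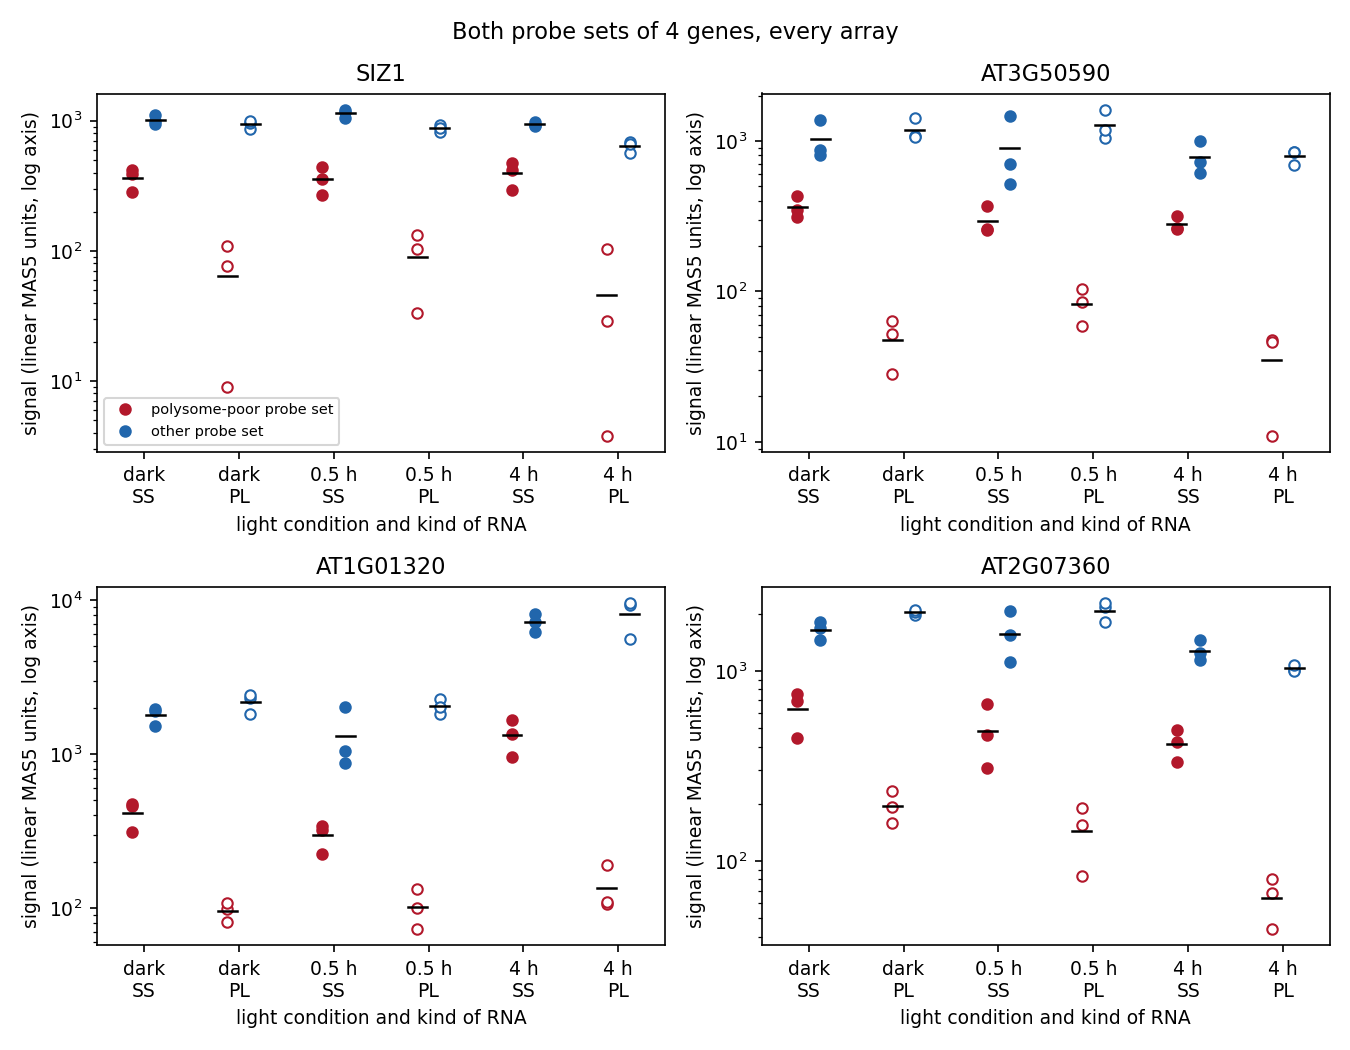
Linear signals on a log axis for both probe sets of SIZ1, AT3G50590, AT1G01320 and AT2G07360 on every array, by light condition and kind of RNA (SS, steady-state; PL, polysome). Filled circles are steady-state and open circles polysome arrays, red marks the probe set that met the rule and blue the other one, and bars are group means (n = 3). In all 4 genes the red polysome signals drop far below the red steady-state signals, while the blue ones stay at -0.57 or higher in ratio.

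The same split ran through many of the lowest members. Of the 93 members, 28 (30.1%) belonged to a gene with another single-gene probe set on the array, whereas 136 of the 5623 probe sets of the comparison set did (2.42%). In 2 genes both probe sets were members: AT5G24690, of the Reticulata-related family, with ratios of -2.04, -2.16 and -2.98 at one and -0.93, -0.83 and -0.91 at the other, and the F-box protein gene AT5G22700, with -1.31, -1.54 and -1.43 at one and -1.03, -1.13 and -0.91 at the other. In the remaining 24 genes the other probe set was no member. All 24 of these other probe sets reached the steady-state minimum, and all 24 lay above -0.8 in every condition. Their mean ratios ran from -0.39 to 0.42 with a median of 0.12, and 15 lay above 0.

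Within these 24 genes the mean ratio of the member minus that of its partner had a median of -1.85 and ran from -3.02 to -0.83, and in 22 genes the gap was 1 or more. The sign of this gap follows from the choice of the member, and the rule favours a large gap as well. The 20 pairs of the comparison set with no member in them differed by a median of 0.79, from 0.10 to 2.08, and 5 differed by 1 or more. These pairs hold no probe set that meets the rule, so a smaller gap is favoured in advance and the contrast is a description. In 21 of the 24 genes the partner had the higher steady-state signal in darkness. Probe sets of 1 gene differ in hybridisation, so these signals do not give amounts of different transcript forms. Of the 12 members with a mean ratio of -2 or lower, 10 had another probe set, and for 9 of these it was not a member. The gene's locus had absorbed an older locus name for 11 members (11.8%), all of them with another probe set, against 59 in the comparison set (1.05%). No transcript sequences or probe positions were used here, so which parts of a gene the probe sets read was not tested.

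**Figure D2:**
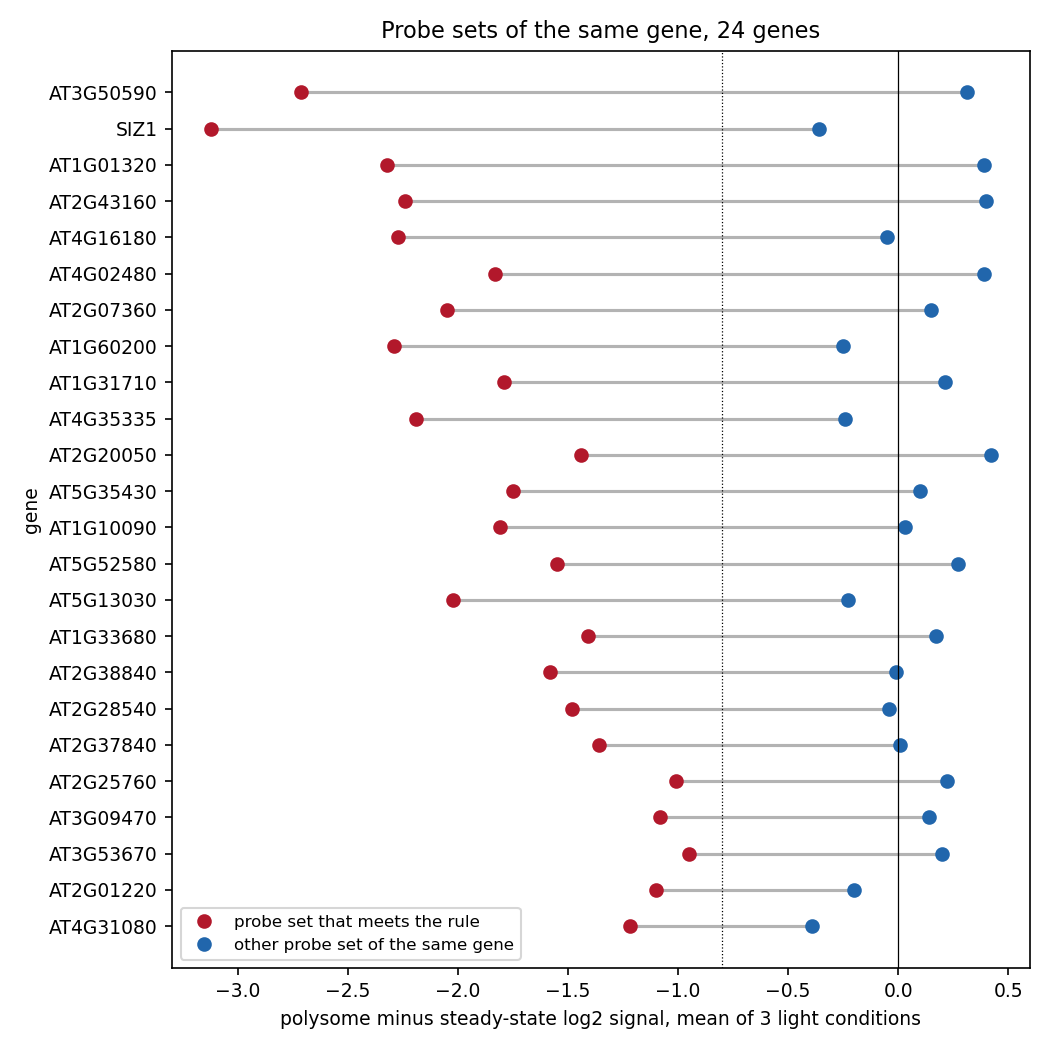
Polysome minus steady-state log2 signal, averaged over darkness, 0.5 h and 4 h, for the probe set that met the rule (red) and the other probe set (blue) of each of 24 genes, ordered by the gap between them. The dotted line marks -0.8; the blue points lie between -0.39 and 0.42.

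By function, proteins of membrane traffic formed a group of 8 members with a median mean ratio of -1.74, and 6 of the 8 had another probe set. The functional groups were assembled from gene annotation after the members were known. The lowest was AT3G50590, TWD40-1 of the TPLATE complex, the adaptor that helps form endocytic vesicles at the plasma membrane in plants. Its steady-state signals in darkness were 313.0, 347.1 and 427.4 and its polysome signals 28.1, 51.7 and 63.3. Its ratios were -2.99 ± 0.42, -1.86 ± 0.71 and -3.27 ± 1.37 (SD, n = 3), and the other probe set of the gene gave 0.24, 0.64 and 0.05. AT2G07360, TASH3 of the same complex, gave -1.67, -1.75 and -2.71 at the member and 0.31, 0.44 and -0.30 at the other. The epsin-type protein AT2G43160, a vesicle coat adaptor, gave -2.15, -1.67 and -2.89 beside 0.31, 0.64 and 0.26, and the Rab GTPase-activating protein AT3G55020 gave -1.74, -1.33 and -2.76 with no other probe set.

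The TPLATE complex was followed further because it contributed 2 members, on a list drawn up after their values were seen. Its 8 subunits had 11 probe sets. TWD40-2 also had a low probe set, with -2.51, -2.85 and -1.63, which missed the steady-state minimum, and another at 0.32, 0.38 and -0.15. TPLATE itself lay at 0.54, 0.60 and 0.39, LOLITA at 0.15, -0.08 and 0.33, EH1 at 0.19, 0.85 and 0.15, EH2 at 0.02, 0.56 and -0.33, and TML at 0.00, -0.20 and -0.73. So 3 of the 11 probe sets were at -0.8 or lower throughout, and each of these 3 had a partner on the same gene above it.

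RNA-binding and RNA-processing proteins gave 9 members. AT1G33470, a protein with an RNA recognition motif, had no other probe set and the lowest ratio in darkness. Its dark steady-state signals were 540.0, 272.6 and 200.7 and its polysome signals 23.3, 33.1 and 13.2. These polysome signals lie in the range of the root hair markers above. Its ratios were -3.83 ± 0.75, -1.92 ± 0.73 and -3.26 ± 0.91 (SD, n = 3), and the mean of its 3 ratios, -3.01, became -2.15 with 32 added to each signal. All of its polysome arrays lay below all of its steady-state arrays. AT1G60200, a splicing factor of the RBM25 type, gave -1.86, -2.25 and -2.76, with -0.38, -0.06 and -0.31 at its other probe set. Its polysome signals at 4 h were faint and spread widely, at 7.0, 33.2 and 68.8. With 32 added to each signal its ratios were -1.46, -1.55 and -1.68, and its mean ratio moved from rank 6 to rank 19. The Alba-domain protein AT1G76010 gave -1.55, -1.64 and -1.28. AT2G28540, with an RNA recognition motif, gave -1.17, -1.26 and -2.01, with 0.15, -0.01 and -0.27 at its other probe set. The core splicing factors were measured only through U2AF65A (-0.55, -0.76 and -1.07) and U2AF35A (-0.94, -0.72 and -0.33), of 22 listed genes, and neither was a member. Both fell at 4 h in both RNAs (limma adjusted p under 0.05), with changes of U2AF65A of -0.69 in steady-state and -1.21 in polysome RNA and of U2AF35A of -1.26 and -0.65.

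Protein modification and signalling gave 9 members led by SIZ1. AT5G13030, a SelO-type protein, gave -1.49, -1.65 and -2.92, and the calmodulin-binding CBP60-type protein AT2G18750 gave -1.45, -2.0 and -2.33. AT2G20050, with phosphatase 2C and kinase domains, gave -1.33, -1.29 and -1.70. The other probe sets gave -0.04, -0.08 and -0.57 for AT5G13030 and 0.38, 0.56 and 0.32 for AT2G20050. AT2G25760, a kinase of the photoregulatory protein kinase family that acts on light-signalling proteins, gave -0.87, -0.91 and -1.25 at the member and 0.23, 0.24 and 0.19 at its other probe set. The rest of the SUMO pathway could be seen only in SAE1A, a subunit of the activating enzyme, out of 16 listed genes, and it lay at 0.17, -0.11 and 0.19 and rose at 4 h by 0.49 in steady-state and 0.51 in polysome RNA (limma adjusted p = 0.0423 and 0.0336).

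Among the most abundant members was DI19, a zinc-finger protein named for its induction by drought. Its steady-state signals in darkness were 13758.8, 15547.2 and 12655.9 and its polysome signals 2916.4, 4255.3 and 4188.3. The groups lay far apart, and the ratios were -1.90 ± 0.32, -1.96 ± 0.29 and -1.68 ± 0.16 (SD, n = 3) in darkness, 0.5 h and 4 h. The jacalin lectin JAL34 had the highest dark steady-state mean, 14440, beside a polysome mean of 8033. The cathepsin B-like protease AT4G01610 had 10680 beside 5273. The other members of transcription and chromatin were AT2G25590, an Agenet-domain protein, with -1.46, -1.23 and -1.43, and the Mediator subunit gene MED10 (AT1G26665), with -1.37, -0.97 and -0.94. None of these 5 genes had another single-gene probe set.

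Membrane transporters gave 7 members, of which AT4G35335, of the nucleotide-sugar transporter family, lay lowest with -2.15, -2.43 and -1.97 and had another probe set at -0.03, -0.56 and -0.14. The efflux carrier of the MATE family AT1G66760 gave -1.57, -1.81 and -2.20. Metabolism and cell wall gave 9, among them the copper amine oxidase AT1G31710 (-1.97, -1.71 and -1.68, with 0.27, 0.28 and 0.08 at its other probe set), AT5G15780 of the Pollen Ole e 1 family (-1.11, -0.83 and -2.90) and a xylose isomerase, AT5G57655 (-0.87, -1.26 and -2.16). Stress and proteolysis gave 6, led by the drought-induced DI21 with -2.31, -2.18 and -1.02.

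Mitochondrial functions gave 5 members. AT1G53030, a COX17-type chaperone that carries copper to cytochrome c oxidase, gave -2.17, -1.95 and -0.90. The gene for subunit 2 of that oxidase, cox2, is encoded in the mitochondrion, whose transcripts are translated by ribosomes of the organelle, and it gave -0.87, -1.41 and -1.95. Its polysome signals of 4.4, 136.4 and 98.2 at 4 h spread widely, and they overlapped its steady-state signals of 104.7, 237.0 and 137.6. AT2G07707, AT2G07751 and AT2G07708 are nuclear loci of mitochondrial type with ratios between -1.22 and -0.86. Their probe sets are of the kind that matches several near-identical sequences, so whether nuclear or mitochondrial copies gave the signal is uncertain. A further 11 members fell under other functions and 26 had no function that could be stated, of which AT4G16180 was lowest at -2.10, -2.40 and -2.31, with -0.09, 0.04 and -0.10 at its other probe set.

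The ratio itself moved with light in some members. From darkness to 4 h it shifted by a median of -0.27 in the members and -0.08 in the comparison set; setting all arrays to a common median shifts ratios by 0.14 at 4 h and 0.01 in darkness. In 13 members (14.0%) the ratio fell by 1 or more, as it did in 37 probe sets of the comparison set (0.658%), members included. The members' low ratio at 4 h is part of the rule, so these shares are a description. The lowest of the 3 ratios came at 4 h in 54 members, at 0.5 h in 20 and in darkness in 19.

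The largest drops were those of the Rab GTPase-activating protein AT5G52580 (-0.83 in darkness and -2.83 at 4 h), the AAA-type ATPase AT4G02480 (-1.0 and -2.89) and AT5G15780 (-1.11 and -2.90). That of AT5G52580 rests in part on 1 of its 4 h polysome arrays, which read 58.3, 8.6 and 79.1. With 32 added to each signal its ratio shifted by -1.19 and ranked 5, while AT5G15780 (-1.72) and AT4G02480 (-1.52) ranked 1 and 2. Steady-state signals of AT4G02480 were 537.7, 1253.0 and 767.4 in darkness and 639.5, 576.4 and 504.7 at 4 h. Its polysome signals were 306.3, 379.0 and 559.0 in darkness and 86.6, 59.0 and 89.3 at 4 h. The polysome groups did not overlap and the steady-state groups did. The other probe set of AT4G02480 stayed at 0.24, 0.55 and 0.37, and that of AT5G52580 at 0.32, 0.36 and 0.14. In the opposite direction, the ratio rose by 1 or more in DI21 (from -2.31 to -1.02) and in AT1G53030 (from -2.17 to -0.90) alone among the members.

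**Figure D3:**
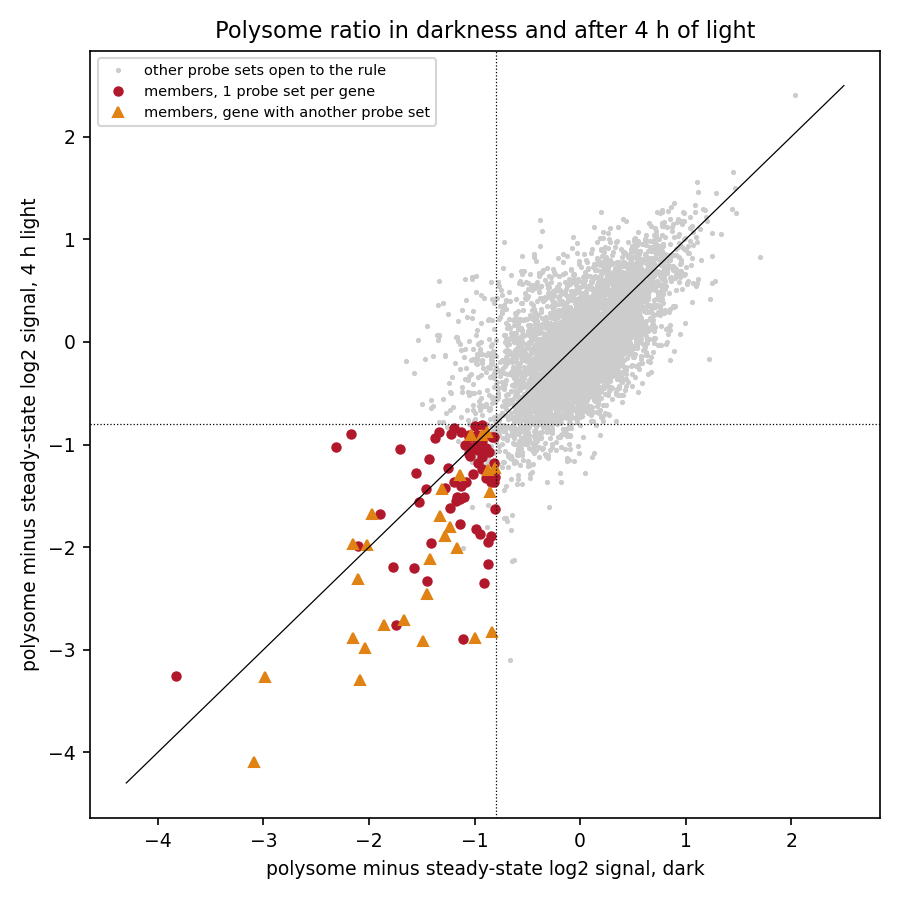
Polysome minus steady-state log2 signal in darkness (x axis) and at 4 h of light (y axis) for the 5623 probe sets open to the rule. Red circles are members with 1 single-gene probe set per gene, orange triangles members whose gene has another, grey points the rest; dotted lines mark -0.8 and the diagonal marks equal ratios. Orange triangles make up many of the lowest points, among them SIZ1 at -3.09 and -4.10.

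How the members respond to light was then tested within each kind of RNA. The rule compared the RNAs within a light condition and did not compare light with darkness, but it used these same arrays and group means. limma was fitted to all 15922 probe sets above a filter on low signals, all 93 members among them, with Benjamini-Hochberg adjusted p under 0.05 as the call. The comparisons at 0.5 h and 4 h share the dark arrays. All arrays had been scaled to 1 level, so changes are relative to the bulk of transcripts.

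At 0.5 h 1 member was called in each kind of RNA (1.08%), a share near that of all tested probe sets. In steady-state RNA 1 of 93 passed, with 1.43% of all tested probe sets called (0.741% higher and 0.685% lower). In polysome RNA 1 of 93 passed, with 1.31% called overall (0.628% higher and 0.678% lower). Unadjusted limma p-values under 0.05 numbered 1 in steady-state and 2 in polysome RNA among the members. Over the 15922 tested probe sets they numbered 1232 and 906. Both calls were AT1G61890, an efflux carrier of the MATE family. Its steady-state signals were 1458.8, 1556.7 and 917.3 in darkness and 2695.3, 1945.2 and 2126.6 at 0.5 h, and its polysome signals 648.8, 684.0 and 683.2 in darkness and 1262.6, 1165.7 and 1257.8 at 0.5 h. The groups did not overlap in either RNA, and the log2 changes were 0.81 ± 0.18 (SE, limma adjusted p = 0.0182) and 0.87 ± 0.18 (limma adjusted p = 0.0102). These calls were close to the threshold: the steady-state one ended without dark replicate 3 (limma adjusted p = 0.114) or 0.5 h replicate 1 (0.0583), and the polysome one without dark replicate 1 (0.0514) or 0.5 h replicates 1 (0.0522) or 3 (0.0516).

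At 4 h in steady-state RNA 27 members (29.0%) passed, beside 34% of all tested probe sets and 38.1% of the comparison set. Of the 27, 22 were lower and 5 higher, that is 23.7% and 5.38% of the members. Over all tested probe sets 17.1% were lower and 16.9% higher, and in the comparison set 21.2% and 16.8%. The median log2 change was -0.26 in the members, -0.08 in the comparison set and -0.01 over all tested probe sets.

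At 4 h in polysome RNA 39 members (41.9%) passed, beside 35.7% of all tested probe sets and 41.2% of the comparison set. Here 37 were lower and 2 higher, 39.8% and 2.15% of the members, where 20.1% and 15.6% of all tested probe sets were called lower and higher, and 24.5% and 16.7% of the comparison set. The median log2 change was -0.62 in the members, -0.16 in the comparison set and -0.09 over all. A low polysome mean at 4 h is part of what the rule asked for, so the polysome direction is not independent of the choice. Of the 65 members whose gene has no other probe set, 23 passed in steady-state RNA (4 higher and 19 lower) and 26 in polysome RNA (2 higher and 24 lower). Between 0.5 h and 4 h, 25 members passed in steady-state RNA (5 higher and 20 lower; 33.9% of all tested probe sets called, 16.4% higher and 17.5% lower) and 40 in polysome RNA (1 higher and 39 lower; 33.4% called, 14.6% higher and 18.9% lower).

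Set together, 18 members (19.4%) were lower at 4 h in both RNAs, beside 13.0% of all tested probe sets and 15.9% of the comparison set. A further 19 (20.4%) were called lower in polysome RNA and not in steady-state RNA, beside 7.11% and 8.54%, a class that the rule itself favours. Another 4 were lower and 3 higher in steady-state RNA without a polysome call (4.30% and 3.23%, beside 3.96% and 4.60% of all tested probe sets), 2 were higher in both (2.15% beside 12.3%), and 47 passed in neither (50.5% beside 55.7%). These classes come from the fit without the replicate number as a block, and they shift with it. With the block 33 members passed in steady-state and 50 in polysome RNA, beside 42.4% and 44.7% of all tested probe sets. AT2G18750, called in polysome RNA alone, then also passed in steady-state RNA (limma adjusted p = 0.0188). Whether the response differed between the RNAs was not tested, since that difference is the change in the ratio.

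In steady-state RNA 5 members rose at 4 h. REC1 (AT1G01320, probe set 261054_at), which sets how much of the leaf cell the chloroplasts occupy, had steady-state signals of 310.6, 471.0 and 459.2 in darkness and 956.7, 1661.4 and 1352.0 at 4 h. Its polysome signals were 81.2, 99.4 and 108.1 in darkness and 107.1, 110.4 and 189.4 at 4 h. The steady-state groups lay well apart, and the polysome groups overlapped. The steady-state change was 1.67 ± 0.29 (SE, limma adjusted p = 0.000113) and the polysome change 0.45 ± 0.29 (limma adjusted p = 0.242). At the gene's other probe set both RNAs rose, steady-state by 1.99 and polysome by 1.86 (limma adjusted p = 3e-06 and 7e-06), with means of 7161 and 8128 at 4 h.

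RH39, a DEAD-box helicase that processes chloroplast ribosomal RNA, rose in steady-state RNA by 1.14 ± 0.25 (SE, limma adjusted p = 0.0014). Its steady-state signals were 285.8, 284.2 and 413.7 in darkness and 603.6, 757.5 and 786.4 at 4 h, and its polysome signals 140.1, 174.3 and 206.7 in darkness and 107.1, 119.2 and 212.4 at 4 h. The steady-state groups did not overlap and the polysome groups did. AT5G15780 rose in steady-state RNA by 2.09 ± 0.41 (limma adjusted p = 0.000465), with a polysome change of 0.30 (limma adjusted p = 0.627). AT3G02060, a helicase of the bacterial transcription-repair coupling type, rose in both RNAs, by 1.67 and 1.53 (limma adjusted p = 7.44e-06 and 2.29e-05). AT1G61890 rose in both as well, by 1.26 and 1.07.

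The xylose isomerase AT5G57655, an enzyme of sugar interconversion, fell furthest. Its steady-state signals were 9122.1, 7465.0 and 7945.4 in darkness and 1539.2, 1483.3 and 1442.1 at 4 h. Its polysome signals were 3281.6, 4506.8 and 5999.4 in darkness and 229.7, 390.3 and 411.7 at 4 h. Both pairs of groups lay far apart, with log2 changes of -2.45 ± 0.26 and -3.74 ± 0.26 (SE, limma adjusted p = 2.9e-07 and 8.41e-10).

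All 3 members of transcription and chromatin were called lower in both RNAs, where 13.0% of all tested probe sets and 15.9% of the comparison set were. This group is small and was assembled after the members were known. MED10, a subunit of the Mediator complex that links regulators to RNA polymerase, had steady-state signals of 3472.5, 4703.6 and 5847.8 in darkness and 983.6, 1169.9 and 971.5 at 4 h, with no overlap. Its change was -2.14 ± 0.25 in steady-state RNA and -1.71 ± 0.25 in polysome RNA (SE, limma adjusted p = 1.12e-06 and 1.93e-05). AT2G25590 changed by -1.16 in steady-state and -1.14 in polysome RNA. DI19 fell by 0.79 in steady-state RNA (limma adjusted p = 0.00077) and by 0.57 in polysome RNA (limma adjusted p = 0.0101); the latter call ended without dark replicate 2 (0.0597), dark replicate 3 (0.0539) or 4 h replicate 1 (0.0586).

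Other members that fell in both RNAs were AT5G16110, with no function stated (-2.10 and -1.43), AT4G00560 (-1.98 and -1.73), AT4G16180 (-1.16 and -1.37) and the NOP2-type RNA methyltransferase AT5G66180 (-1.87 and -1.75). Steady-state signals of AT5G16110 were 8667.6, 9496.6 and 10232.8 in darkness and 2353.4, 2460.9 and 1863.9 at 4 h, with no overlap and a standard error of 0.142. Among the mitochondrial members AT1G53030 had changes of -0.66 in steady-state and 0.61 in polysome RNA at 4 h (limma adjusted p = 0.157 and 0.19).

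In membrane traffic 6 of 8 members were called lower in polysome RNA and 1 of 8 in steady-state RNA, and in protein modification and signalling 5 of 9 and 1 of 9, where 20.1% and 17.1% of all tested probe sets were called lower. Fitted with a replicate block, the steady-state counts were 2 of 8 and 3 of 9. The rule favours low polysome signals, and whether the counts differ between the RNAs was not tested. The polysome change of AT5G52580 was -2.15 ± 0.55 (SE, limma adjusted p = 0.00398), or -1.16 without 4 h replicate 2, which kept its call. TASH3 (AT2G07360) changed by -1.63 ± 0.33 (limma adjusted p = 0.000585), AT2G18750 by -1.62 ± 0.34 (limma adjusted p = 0.00086) and AT5G13030 by -1.44 ± 0.24 (limma adjusted p = 8.42e-05). Their steady-state changes were -0.15, -0.59, -0.74 and -0.02 and did not pass, except that of AT2G18750 with the replicate number as a block (limma adjusted p = 0.0188). At its other probe set AT5G52580 changed by -0.61 in polysome and -0.43 in steady-state RNA (limma adjusted p = 0.0147 and 0.0857). The other probe set of AT5G13030 changed by -0.55 and -0.02 (limma adjusted p = 0.0128 and 0.947). AT4G02480 fell in polysome RNA by 2.38 ± 0.34 (limma adjusted p = 1.44e-05), but at its other probe set both RNAs fell, with changes of -1.25 in steady-state and -1.12 in polysome RNA. Of the 11 probe sets of the TPLATE complex, a list drawn up after values were seen, 6 were lower in polysome RNA at 4 h, where 20.1% of all tested probe sets were, on the genes TPLATE (-0.70), TML (-0.93), TWD40-2 (-0.87 at its higher probe set), EH1 (-0.76) and TASH3 (-1.63 and -0.98), and 1, EH1, was lower in steady-state RNA (-0.72); with the replicate block 2 were.

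For SIZ1 no light change passed at the member probe set. The change at 4 h was 0.11 ± 0.90 in steady-state and -0.90 ± 0.90 in polysome RNA (SE, limma adjusted p = 0.945 and 0.482), and the sign of the polysome change turned without 4 h replicate 2, to 0.38. At the other SIZ1 probe set the polysome signal fell at 4 h by 0.57 (limma adjusted p = 0.00316), with a steady-state change of -0.11 (limma adjusted p = 0.601). Over the 24 genes with a member and a non-member probe set, 12 passed as lower in polysome RNA at the member and 12 at the other, 9 of them at both. In steady-state RNA 3 passed as lower at the member and 8 at the other, and with the replicate block these were 5 and 10. Without the block, 20.1% of all tested probe sets were called lower in polysome RNA and 17.1% in steady-state RNA.

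**Figure D4:**
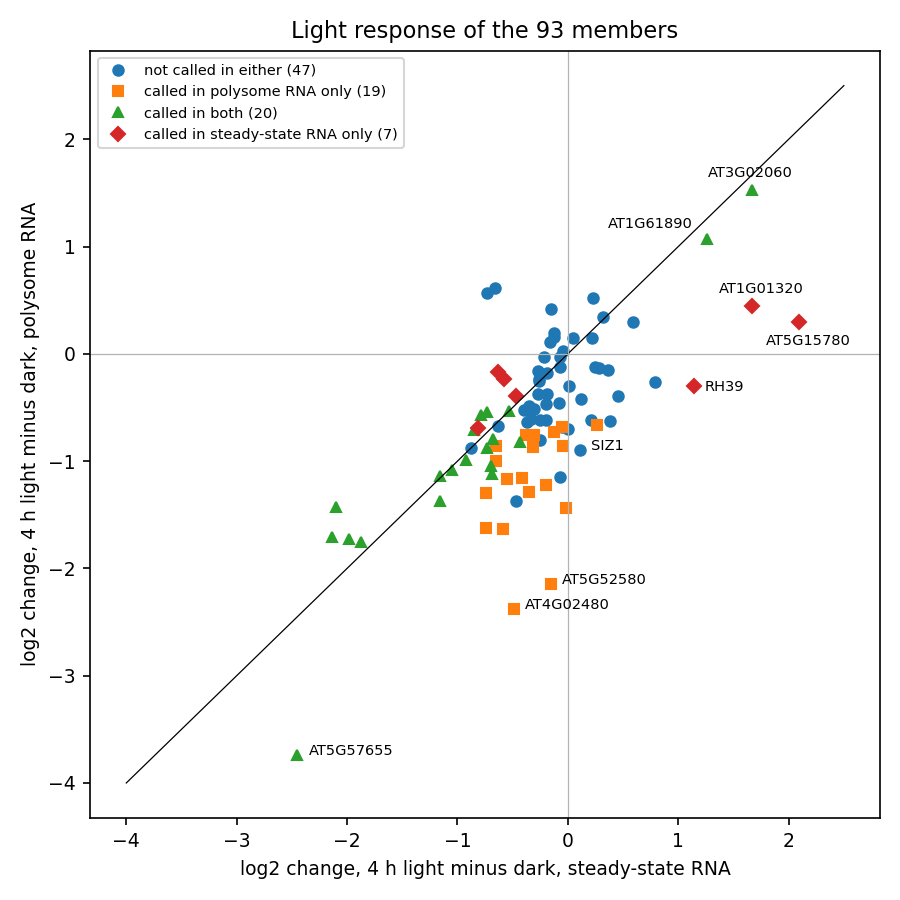
Change in log2 signal from darkness to 4 h of light in steady-state RNA (x axis) and polysome RNA (y axis) for the 93 members. Colours and shapes give the limma call (adjusted p under 0.05), and the diagonal marks equal changes; 47 members passed in neither RNA, 19 in polysome RNA alone, 20 in both and 7 in steady-state RNA alone.

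Genes known for control of translation or RNA decay gave few measured members of their lists. Of 8 genes with conserved upstream reading frames, which let the main frame be translated only under some conditions, 5 were measured and none was a member, and their median ratio was 0.41. At 4 h AT5G15950 was higher in steady-state RNA (0.97) and bZIP44 lower in both RNAs (-1.48 in steady-state RNA). The polysome change of SAMDC, 0.33, passed only with the replicate block (limma adjusted p = 0.0432, and 0.154 without it). Of 4 genes of nonsense-mediated decay, UPF2 and UPF3 were measured, with ratios between -0.45 and 0.23, and neither passed at 4 h without the replicate block, with which UPF3 did (limma adjusted p = 0.0247 in steady-state and 0.0395 in polysome RNA). Of 17 regulators of light signalling only HYH was measured; it rose by 4.07 in steady-state and 4.18 in polysome RNA at 4 h. These lists were too thinly measured to place the members among such genes.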

How the data were processed

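The authors deposited linear signal intensity values of 18 Affymetrix arrays, which came from MAS5, per the submitters' processing notes; the sources used here do not give its version, its settings or a genome build. The 2% trimmed mean is 500 on every array, so the deposited intensity values had been scaled to 1 level. From these, values under 1 (915 of them) were raised to 1, log2 was taken, and 64 control probe sets were left out. Names were taken from the platform annotation and brought up to date with a RefSeq gene table: 13513 probe sets name a single gene, 503 name several and 8730 name none. Ribosomal protein genes were recognised by name alone. The light comparisons used limma 3.58.1 in R 4.3.3, with a mean for each of 6 groups, an intensity trend and Benjamini-Hochberg adjustment over the 15922 probe sets at or above the 30th percentile of mean log2 signal. The median standard error was 0.249. Tested on simulated data for the 4 h steady-state comparison over 15922 probe sets, the script recovered 54% of changes of log2 1 and 87% of log2 2, with 7 false calls. The simulation changed 100 probe sets at each size and drew noise independently for each array. In the data 34% were called and replicate numbers pair the arrays, so these figures do not give the recovery there. The number of arrays limits the precision.

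The members, gene lists and tests were chosen with earlier results of these data known, and functional groups and the TPLATE list after the members' values were seen. Named are SIZ1, the 6 members of lowest mean ratio, the 3 of highest steady-state signal, the members of largest called change in each comparison (up to 6 each way), the 3 nearest either side of the threshold, up to 4 per functional group by lowest ratio, and list genes; the genes with a member and another probe set, AT2G25760 and cox2 among them, were added after their values were seen.

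Replicate numbers pair the samples: over 9 pairs of groups, deviations of same-numbered arrays correlated at 0.108 to 0.426 and of others at 0.0359 at most. What a shared number stands for is not stated in the labels. Alternatives were other thresholds and minimums for the rule, quantile normalization, a common median, 32 added to each signal, no filter on low signals, a filter at the 50th percentile, no intensity trend, the compared arrays alone, the replicate block and each array left out; the rule applied per gene and counts among members with no other probe set were added after the data were seen.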

Additional observations from a re-analysis of the deposited data

Results flagged for a closer look

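AT3G05100, a member with no function stated, moved in opposite directions in the 2 kinds of RNA at 4 h. Its steady-state signals were 737.4, 700.3 and 580.7 in darkness and 780.0, 827.5 and 794.1 at 4 h, a log2 change of 0.26, with every 4 h array above every dark array. Its polysome signals were 304.8, 359.8 and 375.4 in darkness and 209.5, 203.4 and 244.7 at 4 h, a log2 change of -0.66 (limma adjusted p = 0.00716), with every 4 h array below every dark array. The steady-state change did not pass the threshold, and the difference between the changes was not tested.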

How the results depend on the processing

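The rule kept 93 probe sets, and 204 with a threshold of -0.6, 45 with -1.0 and 54 with a steady-state minimum of 300. It kept 116 with a minimum of 100, 77 after quantile normalization, 67 with a common median, 68 with 32 added, and 69 when every probe set of the gene reaching the minimum had to pass. Leaving out each array in turn gave 74 to 104. Members called at 0.5 h in steady-state RNA numbered 0 with a common median and 0 with the compared arrays alone. Over the arrays left out in turn, the calls ran from 0 to 1 (0.5 h steady-state), 19 to 28 (4 h steady-state), 20 to 31 (4 h against 0.5 h, steady-state), 0 to 1 (0.5 h polysome), 27 to 45 (4 h polysome) and 28 to 40 (4 h against 0.5 h, polysome). With the replicate number as a block they were 1, 33, 34, 1, 50 and 46 of the 93 members. No call was lost with it and no count moved by over 1.5 times. Of all tested probe sets, 2.57%, 42.4%, 42.5%, 2.24%, 44.7% and 42.8% were called with the block. The shares for the fits with an array left out are not given here. SIZ1 at 247629_at changed sign in 5 comparisons with single arrays: its change ran from -0.23 to 1.56 (0.5 h polysome), -2.01 to 0.38 (4 h polysome), -0.20 to 0.15 (0.5 h steady-state), -0.06 to 0.31 (4 h steady-state) and -0.04 to 0.34 (4 h against 0.5 h, steady-state). Its polysome change from 0.5 h to 4 h, -1.78, kept its sign (-2.88 to -0.50) and gained a call without 4 h replicate 3 (limma adjusted p = 0.0168). Of 1825 values over 131 named changes, 1662 kept direction and side of the threshold, 154 lost their call, 1 gained one and 8 turned sign, all of SIZ1; the cause was not tested. Faint polysome signals, such as those of SIZ1, move the ratios when a constant is added.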
